A study of Mus musculus with 9 samples.

Results

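Neutrophils of lesion-free skin were compared between mice that carried invasive skin tumors and mice that carried benign papillomas. The comparison rests on 4 of the 9 samples of the study, chosen by their titles: 2 arrays of neutrophils from skin surrounding tumors (Tumor-skin-1 and Tumor-skin-2, here tumor skin) and 2 from skin surrounding papillomas (Papilloma-skin-1 and Papilloma-skin-2, here papilloma skin). All mice were FVB/N animals painted with the mutagen DMBA when 6 and again when 13 weeks old, and with the tumor promoter PMA from week 1 until week 18 to 20, so both groups carry the same treatment and there was no untreated skin. Cells were Gr-1bright neutrophils sorted by flow cytometry from dissociated skin, and the RNA of each array came from pooled mice, so that the spread between arrays is a spread between pools. The other 5 arrays hold neutrophils of papillomas (3) and of tumors (2).

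Neutrophils are short-lived leukocytes that leave the bone marrow with their granule proteins already made. Azurophil, specific and gelatinase granules are filled one after the other during maturation, and the messenger RNAs of granule proteins are high in young cells. Once in a tissue, neutrophils can make nitric oxide, cytokines and chemokines, and in mice they express a family of cysteine protease inhibitors, the stefins A, at high levels.

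The measured quantity is the log2 level of a gene on a one-color Agilent array, as deposited by the authors in a table with 1 value per probe and array, with the median taken over probes of the same gene name. Difference means the mean of tumor skin minus the mean of papilloma skin on that log2 scale, and its SE comes from limma over all 9 columns. A differentially expressed gene (DEG) had an adjusted p no higher than 0.05 after Benjamini-Hochberg correction, a difference of 1 or more in either direction and a mean level of 6 or more.

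The deposited column of papilloma skin 1 stands apart from its own array. Over 55155 probes it had a Spearman correlation of 0.588 with the scanner file of that array, against 0.918 with the scanner file of papilloma skin 2 and 0.924 with that of tumor 2. The columns of papilloma skin 2, tumor skin 1 and tumor skin 2 had correlations of 0.963, 0.958 and 0.931 with their own files. Where the column of papilloma skin 1 got its values was not tested, and for this reason results are also given without it. Arrays of the first replicates had 95% (papilloma skin) and 90.7% (tumor skin) of spots well above background, and those of the second replicates 49.9% and 44.2%. The slope of the spike-in controls, near 1 for a full dynamic range, was 0.678 and 0.876 in the first replicates and 1.06 and 1.04 in the second. The table columns themselves were alike, with Pearson's r over genes of 0.984 within papilloma skin, 0.979 within tumor skin and 0.958 to 0.983 across the groups.

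In the value table, 131 of 34797 genes were DEGs (0.376%), of which 68 (0.195%) were higher and 63 (0.181%) lower in tumor skin. The genes with the largest rises included 4 stefins A, the nitric oxide synthase Nos2 and the acute phase gene Saa1. The genes that fell included the lipoxygenase Alox15, the adenosine receptor Adora2a, the cytokine Il6, the collagen Col5a3 and the macrophage antigen Emr1. At an unadjusted p under 0.05 there were 7736 genes. Without the column of papilloma skin 1, 1 gene was called, ENSMUST00000103464. That fit leaves 1 array of papilloma skin, which is assumed to vary like the other groups. With the scanner files and the slide as a term, limma called 0 genes, with 606 at an unadjusted p under 0.05. Only slide 1 holds both groups. The value table with slide as a fixed term also gave 0 DEGs. With 2 arrays per group an exact permutation test cannot go below a two-sided p of 0.333.

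**Figure D1:**
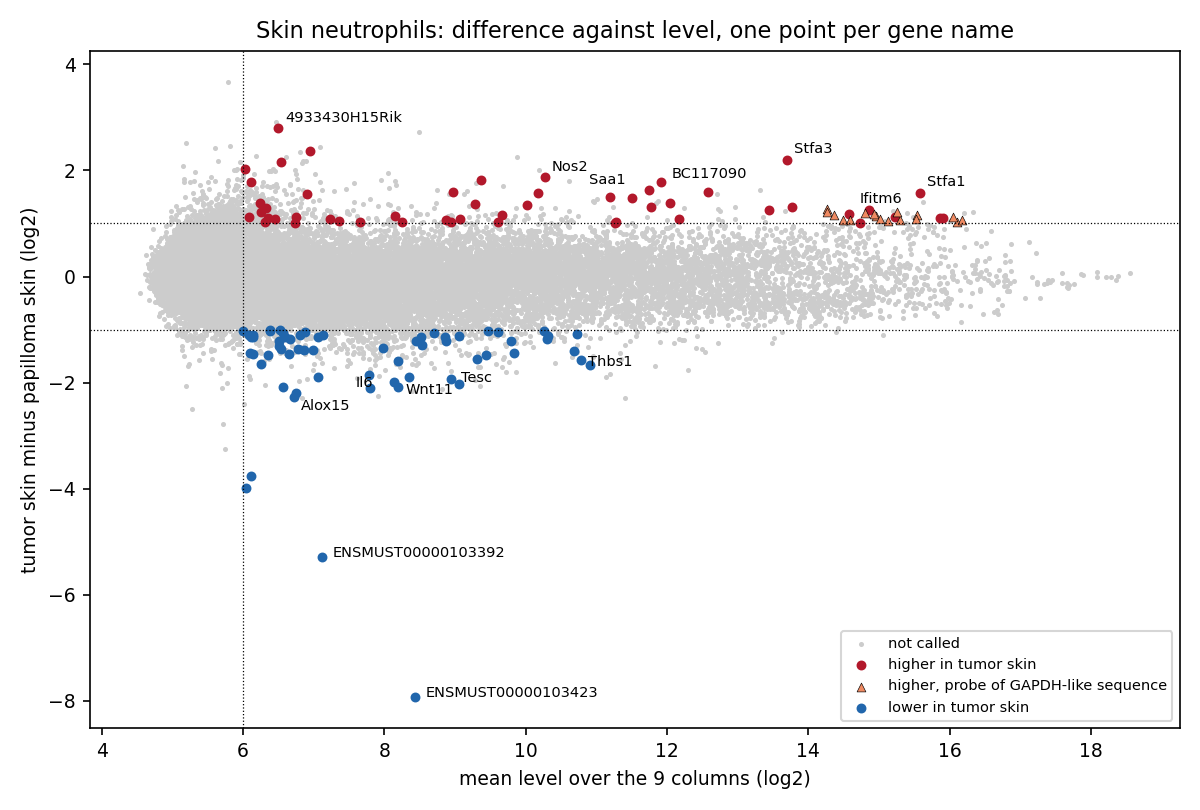
Each point is a gene name, plotted by its mean log2 level over the 9 columns (horizontal) and its log2 difference, tumor skin minus papilloma skin (vertical); dotted lines mark the minimum level of 6 and differences of 1 and -1. Red and blue points are the 68 higher and 63 lower DEGs, and the orange triangles are 17 higher DEGs whose probes resemble Gapdh and which all lie at a level of 13 or more.

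The stefin A genes lie side by side on chromosome 16 and code for small intracellular inhibitors of cysteine cathepsins. Several are near copies of each other, and this decides what a probe can tell apart. The probes of Stfa3 (chr16:36450693-36450752, minus strand, mm9) and Gm5483 (chr16:36188043-36188102, plus strand, mm9) are shown because they share a run of 22 bases, given in capitals, so that their signals can be mixed.
Stfa3: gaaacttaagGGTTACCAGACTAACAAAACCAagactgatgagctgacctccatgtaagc
Gm5483: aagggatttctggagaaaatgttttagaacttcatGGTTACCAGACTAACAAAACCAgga
The probes of BC100530 and 2010005H15Rik shared a run of 25 bases, whereas the probe of Stfa1 shared at most 9 bases with that of another member. Probes were compared only with each other. Whether a probe, that of Stfa1 included, also matches the transcripts of other members was not tested.

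Stfa3 had levels of 12.40 and 12.63 in papilloma skin and 14.82 and 14.59 in tumor skin. Both tumor skin columns lay above both papilloma skin columns, and the difference of 2.19 ± 0.17 (SE), or 4.56-fold, passed the test (limma, Benjamini-Hochberg adjusted p = 0.00524). BC117090, now named Cstdc6, had 10.68 and 11.34 in papilloma skin against 12.96 and 12.61 in tumor skin, a rise of 1.77 (limma, adjusted p = 0.0403). The gene 2010005H15Rik, now Csta2, had 8.85 and 9.18 against 10.66 and 10.54, a rise of 1.58 (limma, adjusted p = 0.0282). Stfa1, among the more abundant members, had 14.45 and 14.89 against 16.39 and 16.08, a rise of 1.57 (limma, adjusted p = 0.0387).

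Of 9 stefin A genes, 8 had a mean level of at least 6. All 8 were higher in tumor skin with no overlap of the columns, against 19.5% of all genes at that level, and 4 of them were DEGs. Their median difference was 1.39, against -0.08 over all genes at that level. Stfa2, Stfa2l1, BC100530 and Gm5483 had differences of 1.22, 1.05, 1.20 and 1.01 with adjusted p from 0.0622 to 0.0815 (limma, Benjamini-Hochberg). Csta, the ninth member, was at levels of 4.86 to 5.64 and had a difference of -0.46. Without papilloma skin 1 the median was 1.19, and in the scanner files it was 2.16 between the first arrays and 1.05 between the second.

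The 300 bases around the start sites of Stfa1, the most abundant of the 4 called members, and of Stfa3, with the largest rise, are shown to compare their promoters. They are RefSeq sequences of GRCm38.p6 at chr16:36276898-36277197 (plus strand) and chr16:36455343-36455642 (minus strand), with the longest run common to both in capitals.
Stfa1 promoter: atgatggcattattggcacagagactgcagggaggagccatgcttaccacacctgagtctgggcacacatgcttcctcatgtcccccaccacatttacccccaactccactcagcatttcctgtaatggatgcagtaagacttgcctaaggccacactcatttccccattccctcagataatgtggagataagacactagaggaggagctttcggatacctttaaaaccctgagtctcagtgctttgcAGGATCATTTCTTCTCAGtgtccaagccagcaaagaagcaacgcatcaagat
Stfa3 promoter: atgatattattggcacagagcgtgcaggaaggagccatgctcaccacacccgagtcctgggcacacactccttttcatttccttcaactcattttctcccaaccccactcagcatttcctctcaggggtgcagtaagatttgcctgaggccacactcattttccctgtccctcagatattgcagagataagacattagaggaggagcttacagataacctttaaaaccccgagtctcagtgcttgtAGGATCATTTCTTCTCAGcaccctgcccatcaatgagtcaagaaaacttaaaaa
The promoters matched at 247 of 305 aligned columns (81.0%) and shared a run of 18 bases. Searched on both strands, neither held the letters TATAAA, which 13.6% of 32851 promoters of the same length hold.

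Nos2, the inducible nitric oxide synthase that neutrophils and macrophages switch on in inflammation, had levels of 7.58 and 8.11 in papilloma skin and 9.68 and 9.78 in tumor skin. The rise of 1.88 ± 0.21 (3.69-fold) passed the test (limma, Benjamini-Hochberg adjusted p = 0.0263; probe at chr11:78773567-78773626, mm9). Nos2 also rose between lesions, from a mean of 10.74 in papillomas to 12.53 in tumors (limma, adjusted p = 0.00853), which are different arrays. A list of 12 immune regulation genes held genes that the study names and also Pdcd1lg2, Arg2, Ido1 and Cd86, which it does not name. Of these 12, 11 were at the level minimum and Nos2 was the only DEG.

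Saa1, which codes for serum amyloid A, an acute phase protein that binds lipids and attracts leukocytes, had 10.46 and 10.65 in papilloma skin and 12.09 and 12.29 in tumor skin. Its rise was 1.63 ± 0.23 (limma, adjusted p = 0.0374), and in lesions it was 1.19 higher in tumors (limma, adjusted p = 0.0464). Ifitm6, a member of the interferon-induced transmembrane family found in myeloid cells, had 14.93 and 15.06 against 16.22 and 16.15, a rise of 1.19 (limma, adjusted p = 0.0374). Mov10, an RNA helicase that restricts retroelements, had 10.87 and 11.49 against 12.57 and 12.78, a rise of 1.5 (limma, adjusted p = 0.0427).

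Of the 68 higher DEGs, 30 had a current symbol in the reference table, and the 15 with the largest rises went up by 2.47- to 6.99-fold with adjusted p of 0.00524 to 0.0427 (limma). The largest, 4933430H15Rik (now Lrrc71), had 5.87 and 5.57 against 8.79 and 8.26. It fell by 2.24 between the first arrays of the scanner files and rose by 5.97 between the second. Gm11545 rose by 1.82, the olfactory receptor gene Olfr786 by 1.78, Gm5294 by 1.55 and the membrane protein gene Tmem40 by 1.47. Pabpc1l, a poly(A) binding protein, rose by 1.37, B230303A05Rik by 1.35 and Atxn10 by 1.30. Eif4ebp1, an inhibitor of cap-dependent translation downstream of mTOR, had 12.76 and 13.25 against 14.26 and 14.24, a rise of 1.25 (limma, adjusted p = 0.0378). Of the 15, 11 were higher in tumor skin in both pairs of scanner arrays, and the exceptions were 4933430H15Rik, Olfr786, Gm5294 and B230303A05Rik. In the scanner fit with slide Gm5294 turned to -0.32.

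**Figure D2:**
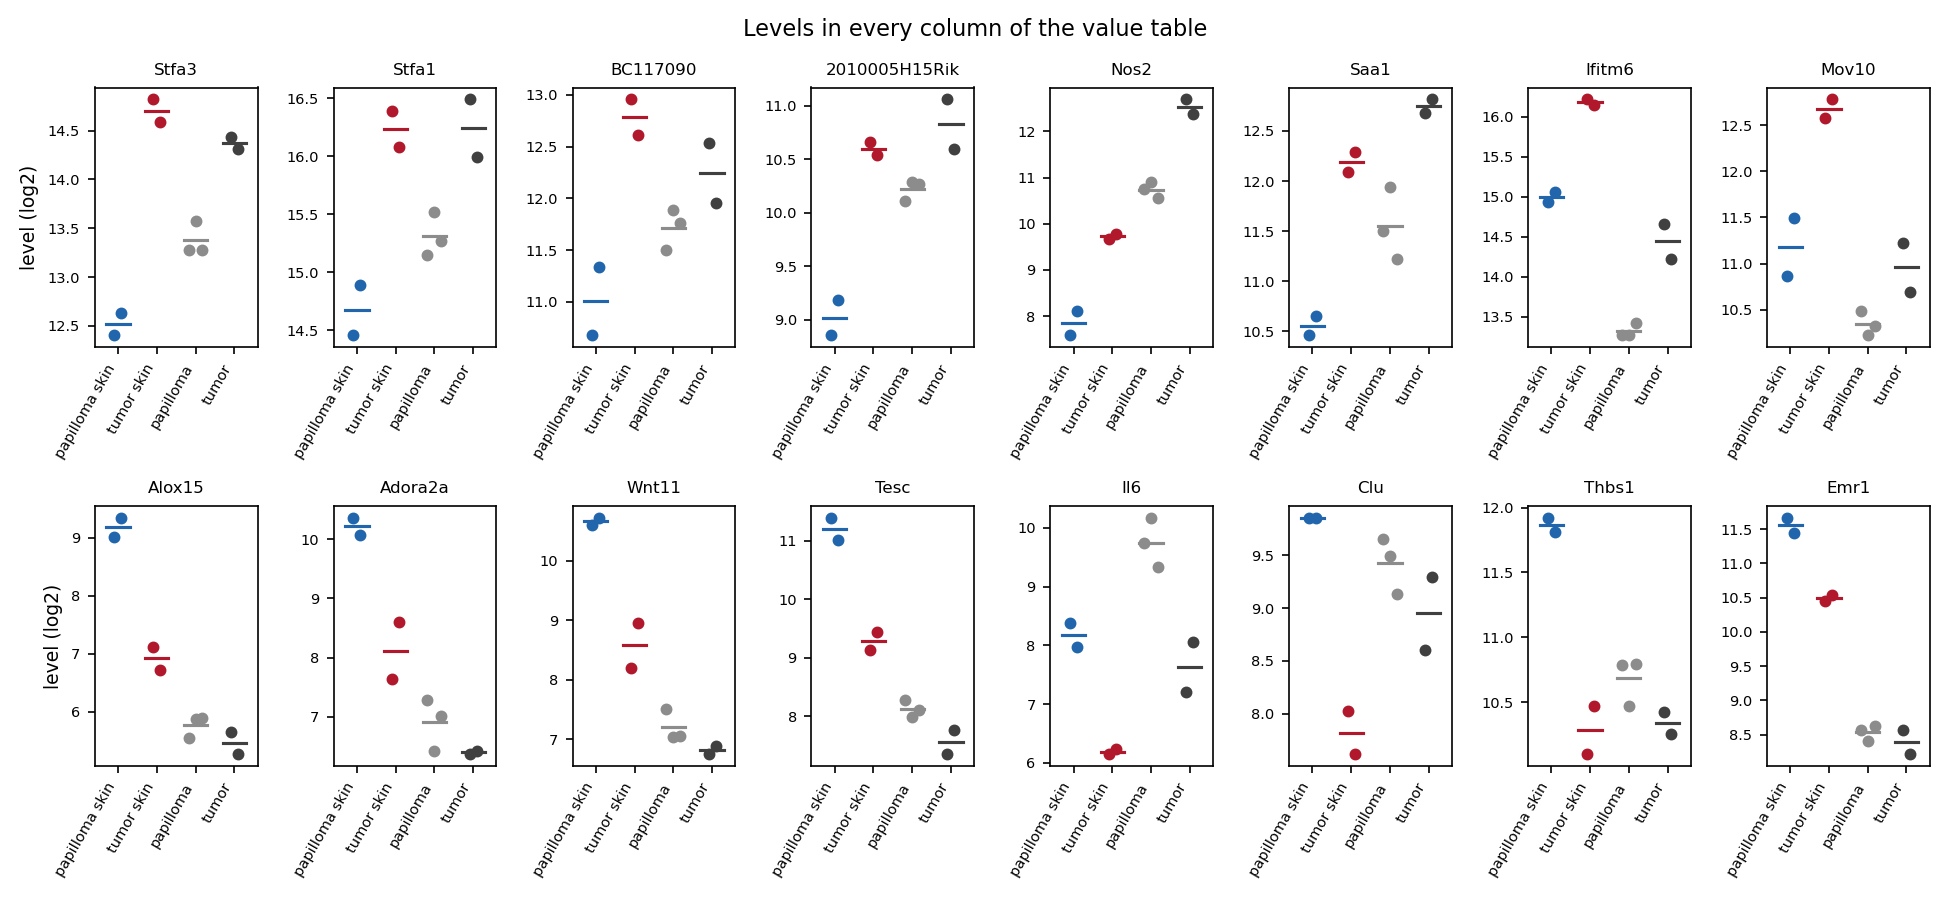
Log2 level of 16 genes in every column of the value table, with papilloma skin in blue, tumor skin in red, papillomas in light grey and tumors in dark grey; each point is 1 array and the line is the group mean. In all 16 panels the red and blue points do not overlap, with Stfa3 at 12.40 and 12.63 in papilloma skin and 14.82 and 14.59 in tumor skin.

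A set of higher DEGs is marked by probe sequence rather than by name. Gapdh, a glycolytic enzyme with many processed pseudogenes, had levels of 14.76 and 15.11 in papilloma skin and 15.84 and 15.59 in tumor skin, a difference of 0.78 that did not pass the test (limma, adjusted p = 0.0719). The probes below carry names without a gene symbol, lie at chr1:188785308-188785367, chr12:15735842-15735901 and chrX:136210651-136210710 (mm9), and are shown with the 14-base run that they share in capitals.
NAP062956-1: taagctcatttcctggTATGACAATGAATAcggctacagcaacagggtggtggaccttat
NAP111317-1: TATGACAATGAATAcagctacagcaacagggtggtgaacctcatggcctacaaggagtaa
NAP030204-1: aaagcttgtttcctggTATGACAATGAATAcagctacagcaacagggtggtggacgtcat
The run was picked as the most common 14-base run among the probes of the higher DEGs. On the array 13 probes held this run, all with differences of 0.94 to 1.27. Of these 9 were called, against 0.195% of all genes called higher. That count follows from how the run was picked and is no support of its own. Another of the called probes with this run, NAP114407-1 (chr2:149569786-149569845, mm9), is shown with a probe named Gapdh on chromosome 6, with the longest run that the pair shares in capitals.
NAP114407-1: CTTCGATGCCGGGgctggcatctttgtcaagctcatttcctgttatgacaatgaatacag
Gapdh probe: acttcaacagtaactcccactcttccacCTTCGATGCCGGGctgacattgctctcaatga
A further set of 55 probes consists of 8 named Gapdh, 0 of them called, and of those linked to them by shared runs of 16 bases in up to 2 steps, of which 8 were called. Together 17 of the 68 higher DEGs had such a probe, all of them at a mean level of at least 13, where 27 higher DEGs lay in all. What these probes measure beside Gapdh was not tested.

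Of 63 lower DEGs, 51 had a reference symbol, and the 15 with the largest falls differed by 2.79- to 4.8-fold with adjusted p of 0.0120 to 0.0443 (limma). Of these 15, 14 were also lower in tumors than in papillomas by sign. In the scanner files 6 of 14 were lower in tumor skin in both pairs of arrays, and Agpat4 has no value there.

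Alox15 codes for the 12/15-lipoxygenase of macrophages and eosinophils, which forms lipid mediators. It had levels of 9.02 and 9.35 in papilloma skin and 7.12 and 6.72 in tumor skin, a fall of 2.26 ± 0.22 (SE) (limma, adjusted p = 0.0132). Both tumor skin columns were below both papilloma skin columns, and the lesions were lower still, at means of 5.77 and 5.46. Emr4, now Adgre4, an adhesion G protein-coupled receptor of macrophages, fell by 1.90 (limma, adjusted p = 0.0120), and Emr1 (Adgre1, a macrophage surface antigen) fell from 11.66 and 11.44 to 10.46 and 10.54 (limma, adjusted p = 0.0403). The scanner fit with slide turned Emr1 to 0.80. Beside these falls, 14 macrophage markers had a summed level of 15.57 and 14.89 in papilloma skin and 15.10 and 15.83 in tumor skin, with 9 of 14 members lower and a median of -0.41, and in the scanner files their median was 1.24 between the first arrays and 0.92 between the second. Whether macrophages in the sort contributed was not tested, and in pooled RNA fewer cells of a type and less RNA per cell cannot be told apart.

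Adora2a, the adenosine A2a receptor that restrains neutrophil activation, had 10.36 and 10.07 in papilloma skin and 7.63 and 8.60 in tumor skin, and fell by 2.10 (limma, adjusted p = 0.0435). In the scanner files its sign changed between array pairs, with 1.47 for the first and -1.01 for the second, and the slide fit gave 0.77. Wnt11, a secreted Wnt ligand, fell from 10.61 and 10.72 to 8.20 and 8.95, and was lower in both pairs of scanner arrays, at -0.47 and -1.53. In both genes the lower of the papilloma skin columns lay above the higher of the tumor skin columns. Tesc, a calcium-binding protein, fell from 11.39 and 11.02 to 9.12 and 9.43. Clu, which codes for the chaperone clusterin, fell from 9.85 and 9.85 to 8.02 and 7.62.

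Il6, the inflammatory cytokine interleukin-6, had 8.38 and 7.97 in papilloma skin and 6.15 and 6.23 in tumor skin, and fell by 1.99 ± 0.34 (limma, adjusted p = 0.0443). Between lesions it fell by 2.12 (limma, adjusted p = 0.0237). In the scanner files the difference was 1.94 between the first arrays and -1.60 between the second. Il18, an interleukin-1 family cytokine, fell from 10.37 and 10.43 to 9.19 and 9.35, with both scanner pairs lower. Of 19 interleukin-1 family and inflammatory genes at the level minimum, these were the 2 called. Il1b was at 17.72 and 17.79 against 17.90 and 17.71, so its groups overlap, and Tnf had a difference of 0.33.

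Further lower DEGs had varied roles. Col5a3, a fibrillar collagen chain, fell by 1.89, Dpt (dermatopontin) by 1.64, Thbs1, a matrix protein that activates TGF-beta, by 1.58, Has1, a hyaluronan synthase, by 1.38 and Tnfaip6, a hyaluronan-binding protein, by 1.10. Between the first scanner arrays all 5 of these were higher in tumor skin, and the slide fit turned Thbs1 to 0.58. Tnfrsf12a, the TWEAK receptor, fell by 1.48, Dnahc2 (Dnah2, an axonemal dynein) by 1.86, Agpat4, an acyltransferase of phospholipid synthesis, by 1.67 and Inpp5j, an inositol phosphatase, by 1.55. Bcl2a1c, a member of the BCL2 family that has near copies, fell by 1.02, with scanner differences of 3.76 and -1.12. Tnnc2, a fast skeletal muscle troponin that is no gene of neutrophils, fell by 1.59 (limma, adjusted p = 0.0274).

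Immunoglobulin genes gave the single largest difference. The probe of ENSMUST00000103423 (chr12:114597942-114598001, mm9), described on the array as expressed sequence AI324046, lies 61.7 kb from the probe of the heavy constant mu gene and is shown here with a kappa variable probe that rose (chr6:43031517-43031576, mm9), in which the capitals mark the letters for a conserved tyrosine, tyrosine and cysteine.
ENSMUST00000103423: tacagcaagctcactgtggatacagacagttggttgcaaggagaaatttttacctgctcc
ENSMUST00000103301: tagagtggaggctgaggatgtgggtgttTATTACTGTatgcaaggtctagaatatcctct
ENSMUST00000103423 had 16.15 and 15.83 in papilloma skin and 9.03 and 7.10 in tumor skin, a difference of -7.93 ± 0.61 (limma, adjusted p = 0.00524), and ENSMUST00000103301 had 7.20 and 7.05 against 9.15 and 9.84. In the scanner files ENSMUST00000103423 differed by 0.66 between the first arrays and -9.61 between the second. Counted apart from both, 113 names are described on the array as immunoglobulin variable genes. Of these 75 were at the level minimum, 1 was called higher (ENSMUST00000103313) and 4 lower, with differences from -5.30 to 2.91. Over all genes 0.195% were called higher and 0.181% lower. Outside the 113, ENSMUST00000103457, ENSMUST00000103464 and ENSMUST00000103511 were also called, with differences of 2.15, 2.03 and -1.49. The array describes them as predicted genes, and their probes lie on chromosome 12, as do probes of heavy variable names. The kappa constant gene had 16.43 and 15.14 against 15.19 and 17.08, and the joining chain Igj 14.53 and 13.24 against 13.26 and 15.20, so both overlapped. Among 6 B and plasma cell markers at the level minimum 0 were called, and their part in the variable gene values was not tested.

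The granule genes differed in sign by class. Of 16 specific and gelatinase granule genes, 14 were higher in tumor skin and 10 did not overlap between groups (19.5% of all genes at that level were higher without overlap), but 0 were called, with a median difference of 0.66 against -0.08 for all genes. Lcn2, the siderophore-binding lipocalin, had 15.07 and 15.67 against 16.57 and 16.97 (difference 1.40, limma adjusted p = 0.0518), and Mmp8, neutrophil collagenase, had a difference of 1.29 (limma, adjusted p = 0.0793). Of 8 azurophil granule genes 7 were lower, with a median of -0.82 and 0 called. Mpo, myeloperoxidase, had 9.51 and 7.77 against 6.21 and 6.51, with papilloma skin 1 the highest. Without that column the list's median was -0.42, while the scanner pairs gave 0.64 and 0.29.

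Of 14 neutrophil markers, 12 were higher in tumor skin, with a median of 0.63 and 0 called by the rule. S100a8 had 18.22 and 18.18 against 18.18 and 18.22, and its partner in calprotectin, S100a9, had 18.52 and 18.58 against 18.58 and 18.63. Retnlg had 16.62 and 16.80 against 17.56 and 17.56 and passed the adjusted p but not the fold minimum (difference 0.85, limma adjusted p = 0.0403). At any fold, 194 genes at the level minimum passed the adjusted p (0.558%), the DEGs included. Ly6g, the antigen of the sort, had 10.27 and 10.99 against 12.65 and 12.22, a difference of 1.80 with an adjusted p just above the threshold (limma, 0.0518). The summed level of the list was 20.07 and 20.14 in papilloma skin and 20.40 and 20.38 in tumor skin, and S100a8, S100a9 and Retnlg were above a level of 16 in every column.

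Genes of glycolysis and hypoxia were higher in 19 of 22 cases, with a median of 0.43 and 0 called. Of all 18817 genes at the level minimum, 8139 were higher and 10678 lower. In the scanner files the glycolysis median was 1.34 between the first arrays and 0.02 between the second. For all genes at that level these medians were 0.56 and 0.03. Eno1 had a difference of 0.93 (limma, adjusted p = 0.0537). Chemokines were lower in 20 of 21 cases, with a median of -0.51 and 0 called. Among them Ccl9 had 14.27 and 13.64 against 11.95 and 12.58, and Cxcl2 had 15.88 and 16.18 against 15.55 and 14.79. Cell cycle genes were lower in 18 of 19 cases, with a median of -0.52 and 0 called. The scanner files gave other signs in at least 1 pair of arrays for chemokines, with medians of 0.96 between the first arrays and -0.37 between the second, and for cell cycle genes, with 0.41 and 0.06, beside 0.56 and 0.03 for all genes at the level minimum. The remaining gene lists had medians from -0.33 to 0.29.

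**Figure D3:**
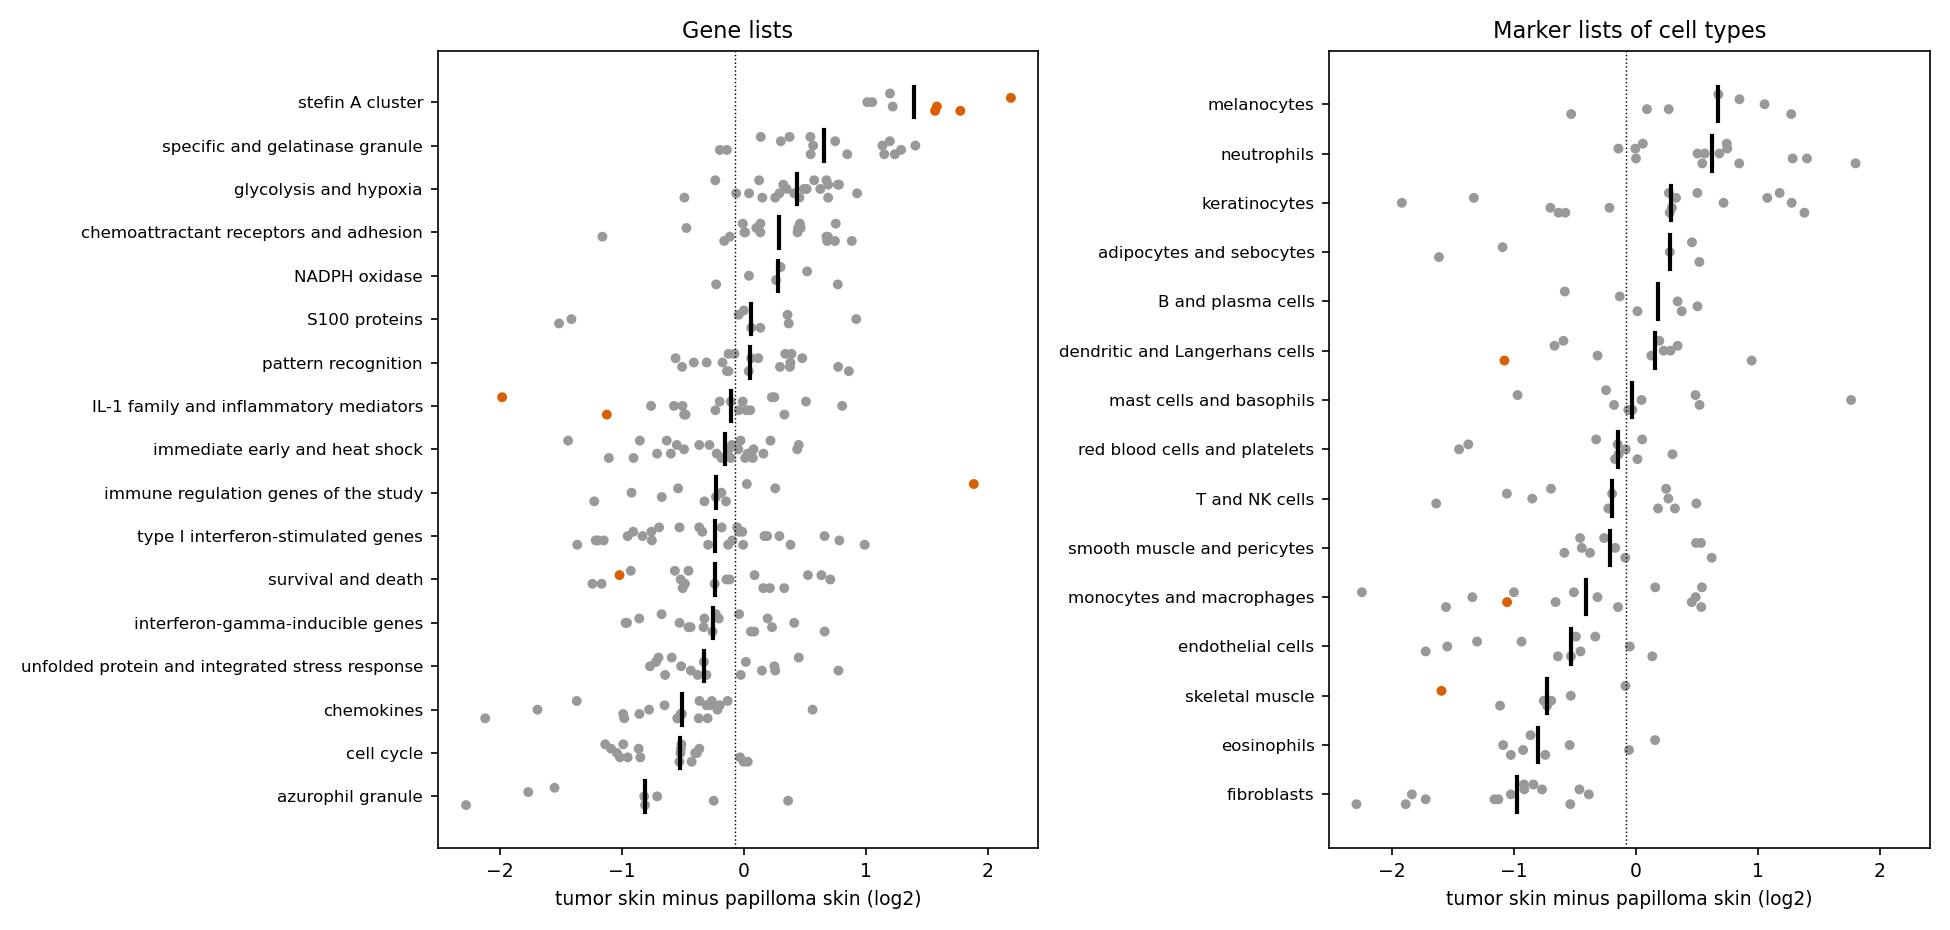
Log2 difference, tumor skin minus papilloma skin, of each member at the level minimum in the gene lists (left) and in the marker lists of cell types (right); black bars are list medians, orange points are DEGs and the dotted line is the median of all genes. The stefin A list lies farthest right with a median of 1.39, and the fibroblast markers lie farthest left among the marker lists, with -0.97.

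Markers of other cells moved with these groups. All 14 fibroblast markers were lower in tumor skin, 12 without overlap (27.3% of all genes at the level minimum were) and 0 called, with a median of -0.97. Their summed level was 15.01 in papilloma skin 1, 13.97 in papilloma skin 2, and 13.31 and 13.46 in tumor skin. The collagen Col3a1 had 11.79 and 10.80 against 9.48 and 9.44. The list median was -0.61 without papilloma skin 1, and in the scanner files it was 1.28 between the first arrays and -0.69 between the second. Eosinophil markers were lower in 7 of 8 cases, with a summed level of 14.14 and 13.75 against 13.09 and 13.21, while their scanner medians were 0.23 and 0.01. Epx, the eosinophil peroxidase, was below the level minimum (difference -1.06, limma adjusted p = 0.0426). Skeletal muscle markers were lower in 7 of 7 cases, of which Tnnc2 was called. The marker lists not yet described had medians from -0.53 for endothelial cells to 0.68 for melanocytes, and H2-Eb1 of dendritic cells was called among them. In the scanner files the melanocyte median was -2.35 between the first arrays and -0.18 between the second. The part of these cells in the falls of Alox15, the matrix genes and Tnnc2 was not tested.

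Several genes that the study follows in lesions did not pass the test in skin. Cd274, which codes for the checkpoint ligand PD-L1, had 12.34 and 13.06 against 12.30 and 12.46, Siglec5 (Siglecf) had 10.31 and 10.14 against 9.94 and 9.42, and Vegfa had 12.55 and 12.46 against 12.35 and 12.20. The first overlapped and the other two did not, and none passed the test (adjusted p from 0.244 to 0.439, limma). For these 3 genes and Olr1 the scanner fit with slide gave the opposite sign. Olr1, the oxidized LDL receptor LOX-1, had 8.73 and 8.94 against 7.68 and 8.15 (difference -0.92, limma adjusted p = 0.0569). Arg1, arginase 1, had 8.77 and 7.17 against 7.16 and 6.32, and its spread within papilloma skin was wider than its difference. The chemokine receptors Cxcr1 and Cxcr2 differed by 0.68 and 0.69 (limma, adjusted p = 0.143 and 0.307).

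The DEGs were read in the scanner files pair by pair. Between the second arrays, 129 of 129 DEGs with a scanner value had the sign of the value table, against 60.1% of all genes at the level minimum. Between the first arrays 79 of 129 (61.2%) did, against 51.5% of all genes. The share in the first arrays was 51 of 67 for higher DEGs and 28 of 62 for lower DEGs. Between the first arrays the median difference over all genes at the level minimum was 0.56, on the side of the higher DEGs. The 2 shares therefore do not show that higher DEGs held better. The first arrays of both groups lie on slide 1, so their difference is also the one within a slide, whereas the second arrays lie on slides 2 and 3. The arrays of the value table and the scanner files are the same, so these shares are not independent support.

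**Figure D4:**
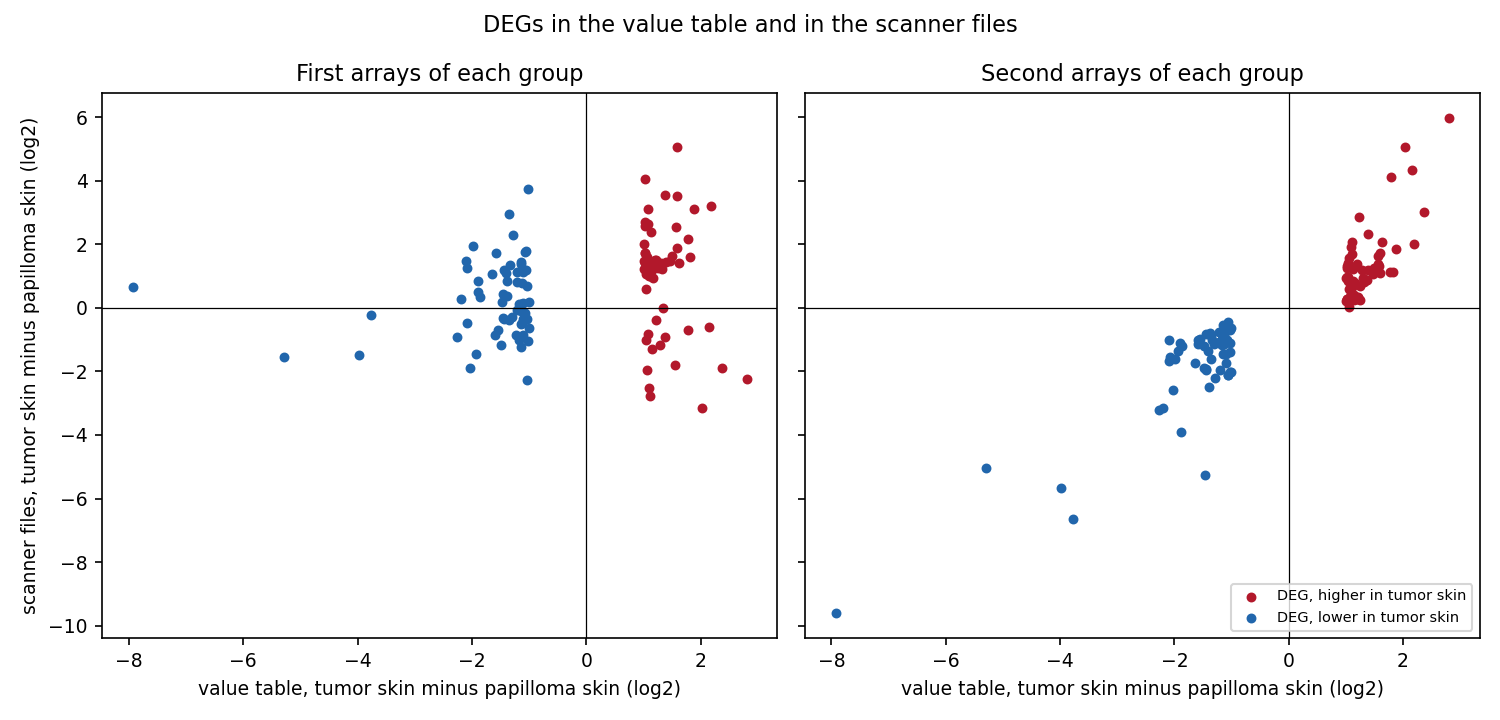
Each point is a DEG, with its log2 difference (tumor skin minus papilloma skin) in the value table on the horizontal axis and in the scanner files on the vertical axis, for the first arrays (left) and the second arrays (right) of each group. On the right 129 of 129 points lie on the side of 0 that matches the value table, and on the left 79 of 129.

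The stage of disease was also compared between lesions, on arrays that share no sample with the skin comparison. Whether skin and lesion pools came from the same mice is not stated, and the columns were described as normalized together. The shares below can therefore not be taken as independent support. Between tumors and papillomas 211 genes were DEGs (0.606%), 51 higher (0.147%) and 160 lower (0.46%) in tumors. Of the 131 skin DEGs, 115 had the same sign in lesions (87.8%, against 60.7% of all genes at the level minimum), with 67 of 68 higher and 48 of 63 lower ones. In lesions 10 of the skin DEGs were called with the same sign, 3 higher (Nos2, Ifitm6 and Saa1) and 7 lower, among them Il6, Col5a3 and the MHC class II gene H2-Eb1, which the scanner fit with slide turned to 0.84. The difference between the stage differences of skin and of lesions passed an adjusted p of 0.05 for 41 genes (0.118%), 5 of them skin DEGs. In the lesions the column of tumor 1 was closest to the scanner file of tumor 2. The column of papilloma 2 was closest to the file of papilloma 3 (Spearman correlation 0.981, against 0.936 with its own). That of papilloma 3 was closest to the file of papilloma 2 (0.959, against 0.940 with its own). The part of these mismatches in the shares above was not tested. Of 63 lower DEGs, 45 had lesion means below the papilloma skin mean in both lesion groups, as Alox15 did. These DEGs were chosen for a papilloma skin mean above that of tumor skin, which favors such a count. The share over all genes was not computed, so the count is descriptive only. Skin and lesions were dissociated with different enzyme mixtures, which are described by tissue and not by stage. Where lesion means are set against the papilloma skin mean, tissue and enzyme mixture cannot be told apart.

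**Figure D5:**
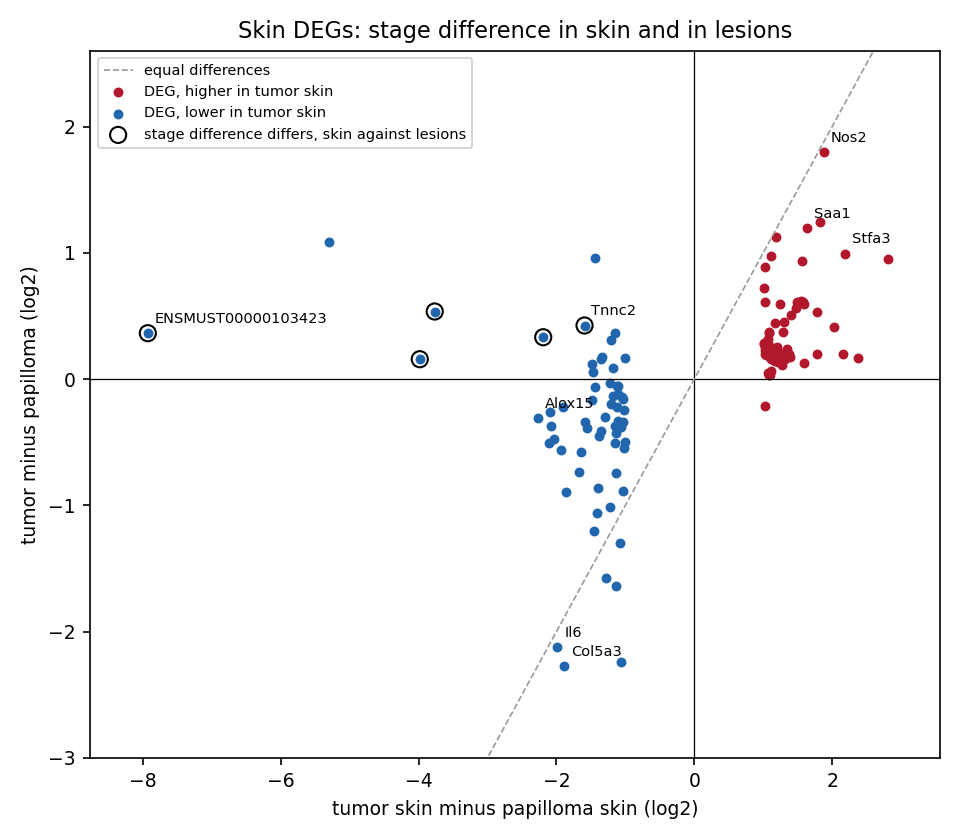
Log2 difference of each skin DEG in skin (tumor skin minus papilloma skin, horizontal) and in lesions (tumor minus papilloma, vertical), with the dashed line marking equal differences and open circles the 5 DEGs whose difference in skin and in lesions was not the same by limma. Most points lie on the side of 0 of the skin difference, with Nos2 at 1.88 and 1.79 and Il6 at -1.99 and -2.12.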

How the data were processed

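Gene expression was measured on 9 Agilent one-color mouse arrays of sorted neutrophils (2 papilloma skin, 2 tumor skin, 3 papilloma, 2 tumor). The authors deposited a table of log2 values per probe, whose making is described as quantile normalization with limma and a ComBat step for the chips, without saying which of them the table holds. The authors also deposited scanner files with processed spot intensity, background-subtracted by the Feature Extraction software. Probe names come from the scanner files, and their positions are mm9; promoters are RefSeq sequences of GRCm38.p6. Of 34797 gene names, 22388 matched a reference symbol.

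Gene medians were tested with limma 3.58.1 in R 4.3.3 over all 9 columns and 4 groups without a batch term (5 residual degrees of freedom), with Benjamini-Hochberg adjustment over 34797 genes. The scanner check took log2 intensity, quantile normalization and slide as a fixed term. Arrays are the replicates, and their number limits the precision. The script was tested on simulated data of 34797 genes, where it recovered 68 of 100 genes changed by 2 and 85 of 100 changed by 3 on the log2 scale, with 3 false calls. The noise behind these counts was independent between columns, with no slide effect and no column unlike its array. These counts therefore check the script and give no error rate for the DEGs above. Named are up to 15 DEGs per direction with the largest difference that have a reference symbol and signal well above background on both scanner arrays of the higher group, genes the paper names and list members. Genes named outside this rule (Ifitm6, Eif4ebp1, Has1, Tnfaip6 and the immunoglobulin and Gapdh-like probes) were chosen after their values were seen. Members and lists were chosen with earlier results of these data known. Alternatives concern scaling, filters, slide, replicate block, array weights and leaving out columns.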

Additional observations from a re-analysis of the deposited data

Results flagged for a closer look

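The stage difference was not the same in skin and in lesions for 5 of the skin DEGs, by a limma contrast of skin minus lesions with Benjamini-Hochberg adjustment over all genes. Tnnc2 was lower in tumor skin and not in tumors, with a contrast of -2.02 (adjusted p = 0.0412). The kappa variable names ENSMUST00000103336, ENSMUST00000103365 and ENSMUST00000103404, and ENSMUST00000103423 (expressed sequence AI324046), had contrasts of -4.14, -4.30, -2.52 and -8.29 (adjusted p of 0.00522, 0.00522, 0.0225 and 0.0219), each from a fall in skin beside a difference in lesions of 0.16 to 0.53. Their means in papillomas and tumors were only 4.98 to 6.26, near or below the level minimum of 6. A fall between lesions could therefore hardly be measured for these names.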

How the results depend on the processing

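In the value table, 131 DEGs became 0 with only the 4 skin columns, with 7 columns (without papilloma skin 1 and tumor 1) and with slide as a fixed term, 12 with array weights, 216 with no level minimum and 87 with a level minimum of 7. Leaving out 1 of the 9 columns in turn gave 1 to 27 DEGs (1 without papilloma skin 1, 27 without papilloma skin 2), so each column moves the count by over 1.5 times. Slide as a random block gave 113, a trend with robust eBayes 111, the dim-probe filter 164, and probes 145. Subtracting the 75th percentile of each column shifted the median of all genes by 0.106 and gave 167 DEGs, 69.5% higher against 51.9%. The scanner check gave 0 DEGs under all alternatives run. The 41 genes whose stage differences differ became 0 with 7 columns and with slide, and 1 to 12 with a column left out. Deviations of same-numbered samples correlated at -0.102 in the value table and 0.690 in the scanner files, where the first arrays share slide 1. The labels name no animals or days shared by a number, so the samples were not taken as paired. With the replicate number as a block the count was 0 over 4 columns and 2 over 9, and 0 in the scanner files. A crossed pairing, chosen after seeing the data, gave 0.

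With 1 column left out in turn, Cd274 ranged from -0.68 to 0.033 (without papilloma skin 2). In the scanner fit with slide, the sign turned for Gm5294 (-0.32), Adora2a (0.77), Thbs1 (0.58), Siglec5 (0.48), Cd274 (0.85), Vegfa (0.64), Olr1 (1.84), Bcl2a1c (1.82), Emr1 (0.80), H2-Eb1 (0.84) and ENSMUST00000103301 (-0.27). In that fit the median difference over all genes at the level minimum was 0.36. The cause of the turned signs was not tested. Over 54 genes and 21 settings, 534 values stayed the same, 547 lost the threshold with the same sign, 3 gained it and 12 turned sign. Staying the same meant lying on the same side of the threshold. Within slide 1, where no test was run, it meant lying within the SE of the main difference. There 19 values did so and 35 moved further. Precision is limited by 2 arrays per skin group, by the low spike-in slope of the first replicates, and by pooled mice.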
